A study of Homo sapiens with 4 samples.

Results

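The genes of the SR proteins, the hnRNP proteins and the factors that work beside them at the splice sites were examined in ovarian cancer stem cells (OCSCs) treated with LY500307, a synthetic agonist of estrogen receptor beta. A gene was included when its symbol began with SRSF, SFRS or HNRNP (with a number after SRSF and SFRS), or when it was TRA2A, TRA2B, U2AF1, U2AF2, SF1, a subunit gene of SF3A or SF3B, a kinase gene of the CLK or SRPK families, SRRM1, SRRM2 or SON. The rule picked 57 of the 23228 gene symbols counted, and the rule itself used symbols alone. They comprised 12 SR protein genes, 2 TRA2 genes, 24 symbols beginning with HNRNP, 10 genes of the branch point and 3′ splice site factors, 6 kinase genes and 3 genes of the large SR-related proteins SRRM1, SRRM2 and SON. After the filter on low counts 53 could be tested. The 4 that could not were HNRNPA1P10, HNRNPCL1, HNRNPUL2-BSCL2 and HNRNPA3P1, which had between 0 and 10 reads in each sample. Pseudogene or read-through symbols made up 4 of the 57, namely HNRNPA1P10, HNRNPA3P1, HNRNPKP3 and HNRNPUL2-BSCL2, and HNRNPKP3 alone among them was tested.

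By the sample titles and the paper, the cells came from SKOV3, an established human ovarian cancer line. Cells with high aldehyde dehydrogenase activity (ALDH+) were sorted from it with a fluorescent enzyme substrate and grown as spheroids in serum-free medium with growth factors. Total RNA was taken after 24 h with vehicle (2 samples) or with 5 µM LY500307 (2 samples), and RNA-seq gave 50 base single-end reads. A single line was used, and the labels do not say whether the samples of a group were separate cultures, so the p-values below measure only the spread between these samples, which may be technical. The design of 2 against 2 is so small that 0.333 is the lowest two-sided p an exact permutation test could return, and p-values therefore come from the edgeR fit across all genes. Beside single genes the adjusted p is given, and a gene is called when its unadjusted p was below 0.05.

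SR proteins bind exonic enhancers through RNA recognition motifs and recruit the splicing machinery through a tail rich in arginine and serine, whereas hnRNP proteins coat the nascent transcript and often silence the sites that SR proteins favour. SF1, U2AF and the SF3A and SF3B complexes recognise the branch point and the 3′ splice site as the U2 snRNP is loaded. CLK and SRPK kinases phosphorylate the arginine and serine tails and so set where SR proteins reside. Many of these genes adjust their own protein by splicing in a poison exon that sends their transcript to nonsense-mediated decay.

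Each sample held between 28841701 and 34943882 reads assigned to genes. The vehicle samples lay close together, with a chi-square of 5.16 per degree of freedom, while the LY500307 samples gave 42.5. Each value was taken over all counted genes that passed a low read limit in that pair. LY500307 replicate 2 stood apart from the other 3 libraries. Values are therefore given with LY500307 replicates 1 and 2 named, and the counts of called genes are also given without each of them. The label was checked against markers. EPCAM averaged 215 counts per 1000000 reads assigned to genes after TMM scaling (CPM) and KRT18 had 23.5 to 31.8 CPM, whereas PAX8 had no read, KRT8 had 9 to 33 reads, and KRT7, KRT19, CDH1, MUC16 and WT1 had from 0 to 6 reads in each sample. Of the ERBB2 amplicon known in SKOV3, 2 genes were looked at. ERBB2 itself averaged 53.9 CPM (percentile 65.5 of the genes tested) and GRB7 2.32 CPM (percentile 17.3), so only ERBB2 of this pair lay above the median gene. Of the ALDH genes, ALDH1A1 had 134 to 185 reads and ALDH1A2 had 315 to 347, but ALDH1A3 had only 8 to 16 and ALDH3A1 2 to 10. By level, EPCAM lay at percentile 93.0 of the genes tested, ALDH1A2 at 32.7 and the fibroblast marker COL3A1 at 98.3. Of the 9 epithelial and Mullerian markers, only 2 averaged at least 1 CPM. Most of these markers thus did not bear out the label, and the markers as a whole did not settle it. Markers of leukocytes other than CD68 had no more than 22 reads, and the 3 endothelial markers no more than 11. The 5 fibroblast markers, led by COL3A1, summed to 903 and 914 CPM in the vehicle samples and to 991 and 1168 CPM in the LY500307 samples. The 3 collagens carried this sum, since DCN had 9.11 and 9.61 CPM in vehicle and 7.58 and 8.76 CPM after LY500307, and LUM 16.9 and 17.3 CPM against 15.1 and 16.8 CPM. The part of these genes in the results was not tested.

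The splicing factor genes took up 2.21% and 2.25% of all gene reads in the vehicle samples, 2.12% in LY500307 replicate 1 and 1.81% in LY500307 replicate 2. HNRNPA2B1, an RNA-binding protein that reads N6-methyladenosine and packages pre-mRNA, gave 11.9% and 12.0% of the family's reads in vehicle and 11.3% and 9.53% after LY500307. The share was thus lower in both treated samples, and lowest in replicate 2. In bulk RNA, fewer cells of a type and less RNA per cell cannot be told apart.

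Levels of different genes were compared per length, as CPM per kilobase of the canonical transcript. In vehicle the highest were HNRNPA2B1 at 743 CPM per kb, HNRNPH1 at 424, SRSF5 at 349 and SRSF9 at 261. For these 4 genes the vehicle samples did not overlap, since HNRNPA2B1 had 731 and 755, HNRNPH1 413 and 435, SRSF5 346 and 353, and SRSF9 262 and 260 CPM per kb. Below them HNRNPAB (254 and 259), HNRNPU (245 and 251), U2AF2 (236 and 238), HNRNPF (232 and 240) and HNRNPM (228 and 239) lay close together, and the ranges of U2AF2, HNRNPF and HNRNPM overlapped. SRSF1 stood at 138 CPM per kb, SF3B1 at 123 and CLK1 at 89.4. The lowest were SRSF12 at 13.3, HNRNPA1L2 at 8.03, HNRNPKP3 at 0.775 and HNRNPH2 at 0.18 CPM per kb. Of the exonic bases of HNRNPH2, 15.8% overlap the read-through gene RPL36A-HNRNPH2 on the same strand. For HNRNPUL2, 44.3% overlap HNRNPUL2-BSCL2. Reads shared between genes were tallied as ambiguous. HNRNPUL2, with the larger overlap, still had 2698 to 3152 reads in each sample. The part of the overlap in the low count of HNRNPH2 was not tested, and that count may not reflect its level. HNRNPA1, among the most abundant hnRNP proteins of most cells, was listed at only 18.3 CPM per kb. The annotation holds 74 pseudogenes of HNRNPA1, 16 of HNRNPA3, 9 of HNRNPC and 5 each of HNRNPK and SRSF3. Reads that aligned to several places were not counted and made up 32.3% to 33.4% of each library's tally, so the levels of these genes are uncertain.

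**Figure D1:**
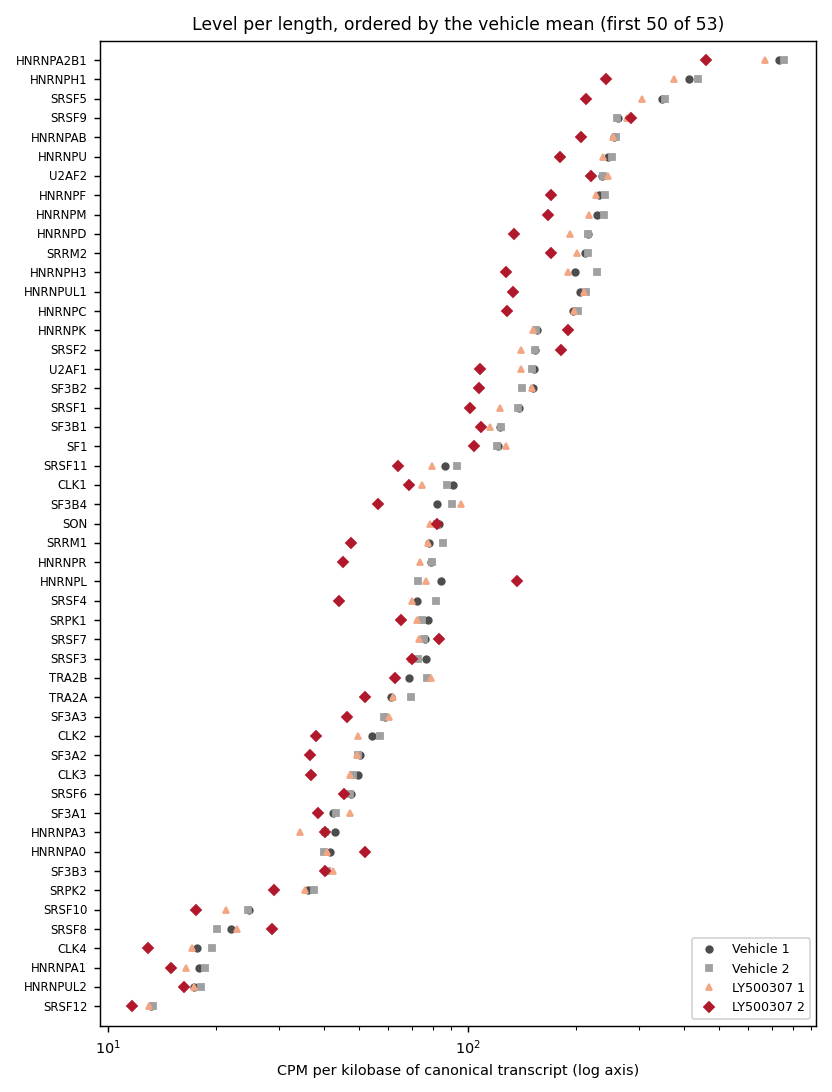
CPM per kilobase of canonical transcript (log axis) for the first 50 of the 53 tested splicing factor genes, ordered by the vehicle mean, with 1 symbol for each of the 4 samples. HNRNPA2B1 heads the order at 743 CPM per kb in vehicle, and the red diamonds of LY500307 replicate 2 lie to the left of the other samples for most genes.

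Splicing factor genes were mostly lower after LY500307, by small amounts. Log2 fold changes (LY500307 minus vehicle) were negative for 43 of the 53 tested genes, against 50% of all 14473 genes tested, and their median was -0.20, against a median of about zero over all genes. In edgeR's quasi-likelihood test 9 genes were lower at an unadjusted p below 0.05, which is 17.0% of those tested, against 5.5% of all genes, in a family that was chosen with earlier results of these data known. None was higher at that threshold, against 6.09% of all genes. The 9 were SRSF1, SRSF5, SRSF10 and SRSF11 of the SR proteins, HNRNPD, HNRNPH1 and HNRNPH3 of the hnRNP proteins, and the kinases CLK1 and CLK2, and their percent changes ranged from -18.9 to -27.4. DESeq2 gave 13 lower genes, 23.6% of the 55 it tested. This stands against 4.3% of the 14473 genes of the edgeR test and 3.46% of the 18407 genes that DESeq2 tested. No splicing factor gene and no other gene had an adjusted p below 0.05 by edgeR with Benjamini-Hochberg adjustment, where the smallest was 0.422, and DESeq2 gave 16 genes past that threshold over the whole table, none of them a splicing factor gene. By the criteria the study used for differentially expressed genes (DEGs), an unadjusted p below 0.05 with an absolute log2 fold change above 0.5, 0 of the 53 were called, against 4.62% of all genes, since the largest absolute log2 fold change among them was 0.46.

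The groups did not overlap for 34 of the 53 genes. In 32 of them, 60.4%, both treated samples lay under both vehicle samples, against 24.4% of all genes. In the other two, SRSF8 and SRSF9, they were above, against 24.2% of all genes. Taken singly, LY500307 replicate 1 was below both vehicle samples in 35 genes (66.0%, against 36.4% of all genes) and replicate 2 in 46 genes (86.8%, against 41.5%). Replicate 2 was also below replicate 1 in 42 genes (79.2%, against 49.4%). The median log2 difference from the vehicle mean was -0.06 in replicate 1 and -0.34 in replicate 2, while over all genes it was 0.00 in both. The splicing factor genes had a median level of 300 CPM, against 27.9 CPM over all genes tested. The part of this difference in level in the shares above was not tested.

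The number of called genes rested on which library was left out. Without LY500307 replicate 2, 17 splicing factor genes were lower and 3 higher at p below 0.05 (8.14% and 7.12% of all genes), and the median was -0.06. Without LY500307 replicate 1, 36 were lower, 7 higher and 14 met the study's criteria for DEGs, while calls also rose over the whole table, to 20.6% lower, 19.8% higher and 13.3% by the criteria. Without vehicle replicate 1 only SRSF4 was lower (1.91% of all genes), and without vehicle replicate 2 none was (2.16% of all genes). In these fits the lone sample of a group is assumed to vary like the pair in the other group.

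**Figure D2:**
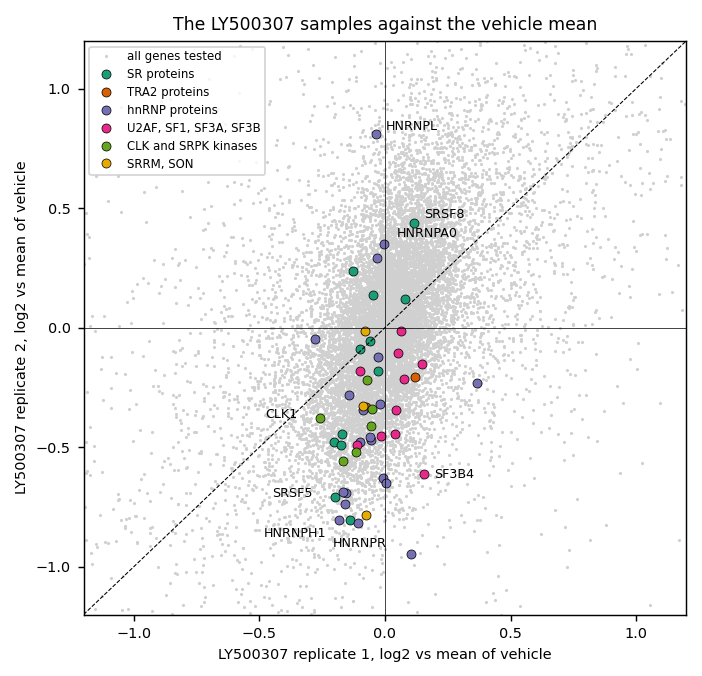
Log2 CPM of each gene relative to the vehicle mean in LY500307 replicate 1 (horizontal) and replicate 2 (vertical), with all 14473 genes tested in grey and the splicing factor genes coloured by role; the dashed line marks equal values, and genes beyond the axis limits are not drawn. Most coloured points lie below zero in replicate 2, with a median of -0.34, and closer to zero in replicate 1, with a median of -0.06.

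Promoter sequence was printed for the called genes that have a single start in the RefSeq table, so that the members lower together can be compared. The RefSeq table (GRCh38) gave 71 windows of 300 bases around the start sites of 50 splicing factor genes, and the 200 bases before each start below were located on GRCh37 by exact match. They are SRSF1 (chr17:56084608-56084807, minus strand), SRSF5 (chr14:70233659-70233858, plus strand), SRSF10 (chr1:24306818-24307017, minus strand), HNRNPD (chr4:83295145-83295344, minus strand) and CLK2 (chr1:155243296-155243495, minus strand), each written 5′ to 3′ on the strand of the gene. Capitals mark the ETS site CCGGAAG, the CCAAT box and the GC box GGGCGG, on either strand.
SRSF1: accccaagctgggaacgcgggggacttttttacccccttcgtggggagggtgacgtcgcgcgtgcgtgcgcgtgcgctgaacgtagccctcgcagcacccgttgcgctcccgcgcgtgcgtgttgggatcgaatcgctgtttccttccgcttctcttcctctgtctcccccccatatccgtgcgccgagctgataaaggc
SRSF5: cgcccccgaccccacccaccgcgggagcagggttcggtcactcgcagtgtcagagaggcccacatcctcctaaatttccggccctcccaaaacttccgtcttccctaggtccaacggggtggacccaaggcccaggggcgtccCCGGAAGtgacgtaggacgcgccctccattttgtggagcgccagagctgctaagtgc
SRSF10: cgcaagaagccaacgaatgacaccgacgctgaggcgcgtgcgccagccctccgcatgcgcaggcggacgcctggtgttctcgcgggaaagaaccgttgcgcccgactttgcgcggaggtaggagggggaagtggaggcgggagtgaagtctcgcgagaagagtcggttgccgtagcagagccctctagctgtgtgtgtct
HNRNPD: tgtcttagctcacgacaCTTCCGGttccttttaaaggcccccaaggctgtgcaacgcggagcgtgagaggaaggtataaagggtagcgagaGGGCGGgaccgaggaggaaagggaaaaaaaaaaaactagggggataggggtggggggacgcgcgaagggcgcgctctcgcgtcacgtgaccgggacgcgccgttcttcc
CLK2: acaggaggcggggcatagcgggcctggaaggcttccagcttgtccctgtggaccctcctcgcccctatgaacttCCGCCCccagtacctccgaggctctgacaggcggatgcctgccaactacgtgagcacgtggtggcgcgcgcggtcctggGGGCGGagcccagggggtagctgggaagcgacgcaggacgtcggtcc
SRSF5 and HNRNPD each held an ETS site, HNRNPD and CLK2 held GC boxes, and the printed bases of SRSF1 and SRSF10 held none of the 3 motifs in the letters searched. Over all 71 windows, the ETS site was found in 15.5%, against 10.3% of all 35116 RefSeq windows, the GC box in 59.2% against 45.0%, the CCAAT box in 36.6% against 34.6%, the E-box CACGTG in 14.1% against 7.26% and the TATA box TATAAA in 9.86% against 11.5%. The estrogen response element palindrome, GGTCA and TGACC with 3 bases between them, was in 0 of the 71 windows and in 0.057% of all windows. Its single arm GGTCA was in 35.2% against 37.4%. By gene, the arm was found in 19 of the 50 genes and in 6 of the 9 called ones, and this difference was not tested. A gene was counted here when any of its windows held the arm, and several called genes have more than a single window. No share by gene was taken over all RefSeq genes, so these counts cannot be set against the shares by window. The arm is not in capitals above, where the bases of SRSF5 and HNRNPD held it. These are matches of letters on both strands, and no binding was measured here.

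Among the SR proteins, 8 of 12 genes were lower in both LY500307 samples than in both vehicle samples, 2 were higher and 2 overlapped. Over all genes 24.4% were lower and 24.2% higher in this way. At an unadjusted p below 0.05, 4 SR protein genes were lower and none was higher (33.3% and 0%, against 5.5% and 6.09% of all genes). Their median log2 fold change was -0.10, which became 0.01 with the GC correction. It was -0.11 without LY500307 replicate 2 and -0.13 without replicate 1. SRSF1 (chr17:56078280-56084707 on GRCh37), a regulator of 5′ splice site choice, had 741 and 738 CPM in vehicle and 657 and 543 CPM after LY500307. Both treated values were below the vehicle values, and the log2 fold change was -0.30 (SE 0.12, edgeR adjusted p = 0.427). SRSF5 (chr14:70193617-70238722), the SR protein with the highest level per length, had 517 and 528 CPM in vehicle and 455 and 320 CPM after LY500307, a log2 fold change of -0.43 (SE 0.16, edgeR adjusted p = 0.422). Replicate 2 lay far below replicate 1 for this gene, and without replicate 2 its log2 fold change was -0.20.

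SRSF10 (chr1:24290837-24307417), which acts as a splicing repressor once dephosphorylated, had 189 and 188 CPM in vehicle and 164 and 135 CPM after LY500307 (log2 fold change -0.33, SE 0.12, edgeR adjusted p = 0.422). SRSF11 (chr1:70671365-70718735), an SR protein with roles in alternative splicing, had 343 and 369 CPM in vehicle and 315 and 253 CPM after LY500307 (log2 fold change -0.32, SE 0.13, edgeR adjusted p = 0.427). For both genes the treated samples were the 2 lowest. Without replicate 2 the log2 fold change was -0.17 for SRSF1, -0.20 for SRSF10 and -0.17 for SRSF11. SRSF4 had the second largest negative log2 fold change of all splicing factor genes, -0.44 (SE 0.20), with 167 and 187 CPM in vehicle and 161 and 101 CPM after LY500307. It did not pass the unadjusted threshold (edgeR adjusted p = 0.431), its replicate 1 value lay just under the lower vehicle value, and without replicate 2 the log2 fold change was -0.14.

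The other SR proteins showed smaller or opposite differences. SRSF3, the smallest SR protein and a factor in mRNA export, had 324 and 307 CPM in vehicle and 295 and 296 CPM after LY500307 (log2 fold change -0.09, 95% interval -0.33 to 0.14). SRSF6 had 206 and 205 CPM in vehicle and 197 and 198 CPM after LY500307, so that the groups were separate but differed by only -0.06 (95% interval -0.28 to 0.16). In these genes the treated samples agreed closely with each other, unlike in SRSF5.

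SRSF2, which unlike most SR proteins stays in the nucleus, had 290 CPM in both vehicle samples, 266 CPM in LY500307 replicate 1 and 342 CPM in replicate 2. SRSF7, an SR protein with a zinc knuckle, had 179 and 178 CPM in vehicle and 173 and 196 CPM after LY500307. In both genes replicate 1 was below the vehicle samples and replicate 2 above, and their log2 fold changes of 0.07 and 0.05 are means over opposite values. SRSF8 had the largest positive log2 fold change of the SR protein genes, with 94.9 and 86.7 CPM in vehicle and 98.2 and 123 CPM after LY500307 (0.28, SE 0.13, edgeR adjusted p = 0.431). SRSF9 had 302 and 300 CPM in vehicle and 318 and 327 CPM after LY500307 (0.10, edgeR adjusted p = 0.667). Of the exonic bases of SRSF9, 43.6% overlap GATC on the other strand, and of those of SRSF2, 27.7% overlap MFSD11. The strand setting of the counting is not given in the sources used here, so reads of such partners cannot be told apart.

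**Figure D3:**
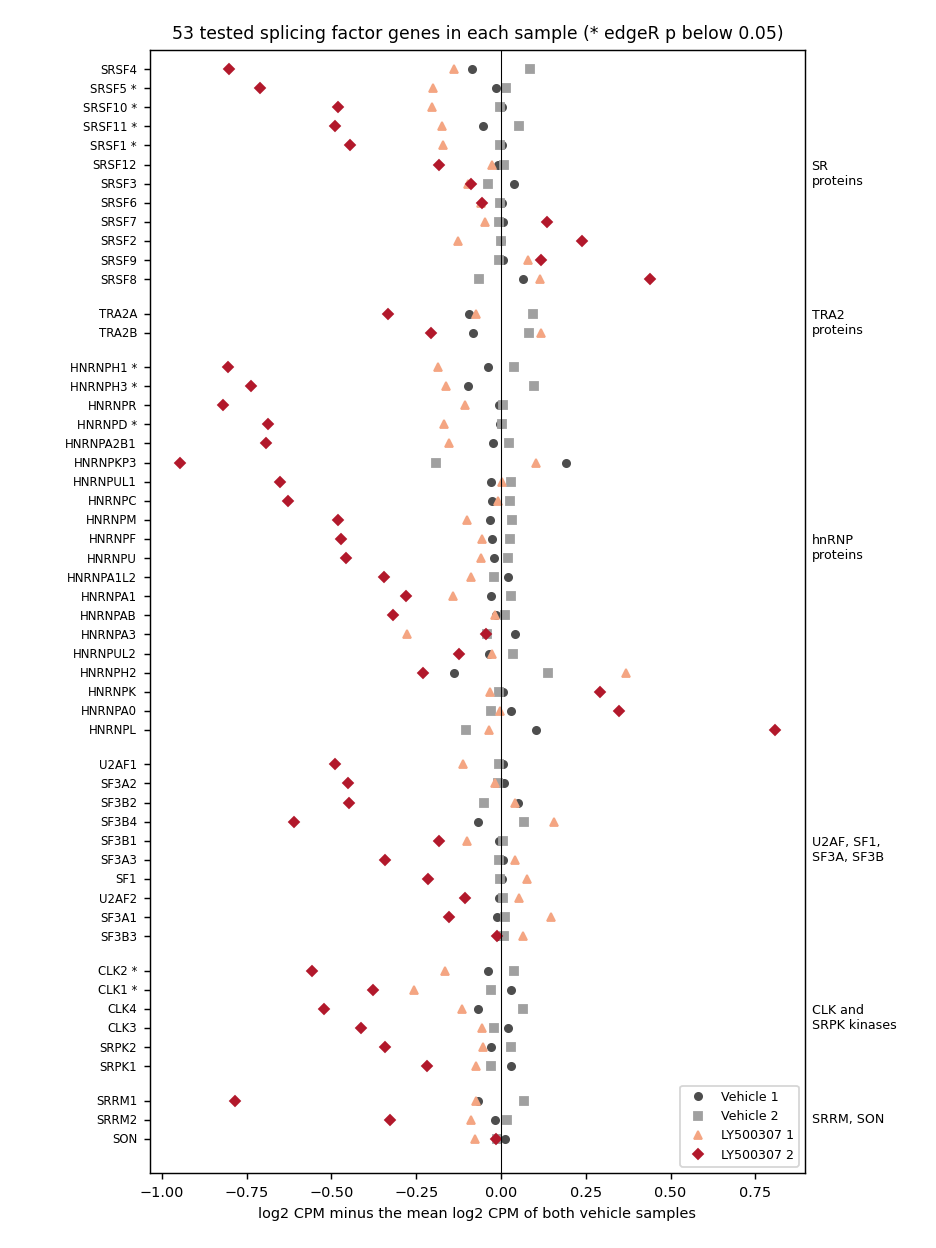
Log2 CPM minus the vehicle mean (horizontal) for the 53 tested splicing factor genes, grouped by role and ordered within each role by log2 fold change, with 1 symbol for each sample and an asterisk for an edgeR p below 0.05. The vehicle samples lie close to zero, LY500307 replicate 1 lies slightly to the left in 35 genes below both vehicle values, and replicate 2 spreads the furthest to either side, below both vehicle values in 46 genes.

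The TRA2 proteins, SR-like activators that bind purine-rich exonic enhancers, overlapped between the groups. TRA2A had 109 and 124 CPM in vehicle and 111 and 92.5 CPM after LY500307 (log2 fold change -0.20, edgeR adjusted p = 0.506). TRA2B had 287 and 321 CPM in vehicle and 329 and 263 CPM after LY500307, a difference of -0.04 with a 95% interval of -0.35 to 0.27. LY500307 replicate 1 was the highest of the 4 samples for TRA2B and replicate 2 the lowest.

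Among the hnRNP proteins 20 of 24 symbols were tested. In 12 of them both treated samples lay under both vehicle samples, in none were they above, and 8 overlapped. Over all genes 24.4% lay under and 24.2% above in this way. At an unadjusted p below 0.05, 3 hnRNP genes were lower and none was higher (15% and 0%, against 5.5% and 6.09% of all genes). The median log2 fold change was -0.25. It was -0.06 without LY500307 replicate 2 and -0.47 without replicate 1. HNRNPH1 (chr5:179041179-179061785), which binds runs of guanines near splice sites, showed the largest difference of all 53 genes. Its values were 925 and 975 CPM in vehicle and 836 and 544 CPM after LY500307, a log2 fold change of -0.46 (SE 0.19, edgeR adjusted p = 0.427). Both treated samples were lower, and without replicate 2 the log2 fold change was -0.18. Its paralog HNRNPH3 (chr10:70090931-70102950) had 469 and 537 CPM in vehicle and 449 and 301 CPM after LY500307 (-0.42, SE 0.18, edgeR adjusted p = 0.43). Its log2 fold change was -0.16 without replicate 2, and it lost its call in 6 of the 9 alternatives that kept all samples. HNRNPD (chr4:83273651-83295656), also called AUF1, which binds AU-rich elements and controls mRNA turnover, had 661 and 664 CPM in vehicle and 590 and 411 CPM after LY500307 (-0.40, SE 0.17, edgeR adjusted p = 0.427). Without replicate 2 it was -0.17.

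HNRNPA2B1 had 2654 and 2739 CPM in vehicle and 2422 and 1667 CPM after LY500307. The groups were separate and the log2 fold change was -0.40, just short of the unadjusted threshold, with an edgeR adjusted p of 0.431 and a 95% interval of -0.80 to 0.00. Without replicate 2 the log2 fold change was -0.15. HNRNPU, a scaffold protein of the nuclear matrix, had 1680 and 1726 CPM in vehicle and 1634 and 1241 CPM after LY500307 (-0.24, edgeR adjusted p = 0.496). HNRNPC, which competes with U2AF2 for uridine tracts, had 619 and 642 CPM in vehicle and 626 and 408 CPM after LY500307 (-0.29, edgeR adjusted p = 0.525). For HNRNPC only replicate 2 lay below the vehicle samples. HNRNPA1, a silencer of exon inclusion, had 67.0 and 69.8 CPM in vehicle and 61.9 and 56.3 CPM after LY500307 (-0.21, edgeR adjusted p = 0.448).

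HNRNPL, HNRNPA0 and HNRNPK had positive log2 fold changes, with only LY500307 replicate 2 above the vehicle samples. HNRNPL, which binds CA repeats, had 180 and 156 CPM in vehicle, 164 CPM in replicate 1 and 294 CPM in replicate 2. Its log2 fold change of 0.44 (SE 0.24, edgeR adjusted p = 0.461) became -0.04 without replicate 2. HNRNPA0 had 362 and 347 CPM in vehicle and 353 and 451 CPM after LY500307 (0.18, edgeR adjusted p = 0.561). HNRNPK, a KH domain protein that binds cytidine-rich RNA, had 451 and 447 CPM in vehicle and 439 and 550 CPM after LY500307 (0.14, edgeR adjusted p = 0.646). In all 3 genes replicate 1 lay within or just below the vehicle range. HNRNPH2, at under 1 CPM in each sample, had a log2 fold change of 0.11 (SE 0.57).

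The factors that recognise the branch point and the 3′ splice site split the treated samples. LY500307 replicate 1 was above both vehicle samples in 6 of the 10 genes and below both in 3, whereas replicate 2 was below both in all 10, and the groups were separate in 3. Over all genes, replicate 1 was above both vehicle samples in 36.6% and below both in 36.4%. Replicate 2 was below both in 41.5% of all genes, and the groups were separate and lower in 24.4%. None of the 10 passed an unadjusted p of 0.05, against 5.5% lower and 6.09% higher over all genes. The median log2 fold change was -0.14. Without LY500307 replicate 2 the median was 0.05, and without replicate 1 it was -0.28. U2AF1, the small U2AF subunit that reads the AG at the end of the intron, had 144 and 143 CPM in vehicle and 133 and 102 CPM after LY500307 (-0.29, edgeR adjusted p = 0.431). Its partner U2AF2, which binds the polypyrimidine tract, had 507 and 511 CPM in vehicle and 528 and 472 CPM after LY500307, a difference of -0.03 with a 95% interval of -0.28 to 0.23. The branch point binding protein SF1 had 398 and 397 CPM in vehicle and 419 and 342 CPM after LY500307 (-0.06, edgeR adjusted p = 0.839). SF3B1, the large subunit that clamps the branch point duplex, had 793 and 800 CPM in vehicle and 743 and 702 CPM after LY500307 (-0.14, edgeR adjusted p = 0.568). SF3A1 had 216 and 219 CPM in vehicle and 240 and 195 CPM after LY500307, a difference of 0.00 with a 95% interval of -0.28 to 0.29. U2AF2, SF1 and SF3A1 thus lay above vehicle in one treated sample and below it in the other.

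All 6 kinase genes were lower in both LY500307 samples than in both vehicle samples, against 24.4% of all genes. Their median log2 fold change was -0.26, with a range of -0.35 to -0.14. At an unadjusted p below 0.05, CLK1 and CLK2 were called (33.3%, against 5.5% of all genes lower). The median of the kinase genes was -0.09 without LY500307 replicate 2 and -0.39 without replicate 1. CLK1 (chr2:201717732-201729414), a nuclear dual-specificity kinase of SR proteins, had 168 and 162 CPM in vehicle and 138 and 127 CPM after LY500307. The treated samples were close to each other and below vehicle by more than the spread of either pair, with a log2 fold change of -0.32 (SE 0.10, edgeR adjusted p = 0.422), the smallest unadjusted p of the 53 genes, and it was -0.26 without replicate 2 and -0.38 without replicate 1. CLK1 was not called with the GC correction or without either vehicle sample. CLK2 (chr1:155232659-155248282) had 117 and 123 CPM in vehicle and 107 and 81.5 CPM after LY500307 (-0.35, SE 0.14, edgeR adjusted p = 0.427). Without replicate 2 it was -0.16. CLK4 had 44.4 and 48.7 CPM in vehicle and 43.0 and 32.4 CPM after LY500307 (-0.31, edgeR adjusted p = 0.445). SRPK1, the cytoplasmic kinase that prepares SR proteins for nuclear import, had 338 and 324 CPM in vehicle and 315 and 285 CPM after LY500307 (-0.14, edgeR adjusted p = 0.564).

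SRRM1, SRRM2 and SON, large SR-related proteins of nuclear speckles, were lower in both treated samples without passing the threshold. Over all genes 24.4% were lower in both treated samples than in both vehicle samples. SRRM2, a scaffold of the speckle, had 1910 and 1957 CPM in vehicle and 1819 and 1542 CPM after LY500307 (-0.20, edgeR adjusted p = 0.501). SON, the other speckle scaffold, had 700 and 688 CPM in vehicle and 658 and 688 CPM after LY500307, where replicate 2 lay within rounding of the lower vehicle sample, and the difference was -0.05 (95% interval -0.28 to 0.19). The scaffold genes thus differed in size, SON being close to vehicle in both treated samples.

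**Figure D4:**
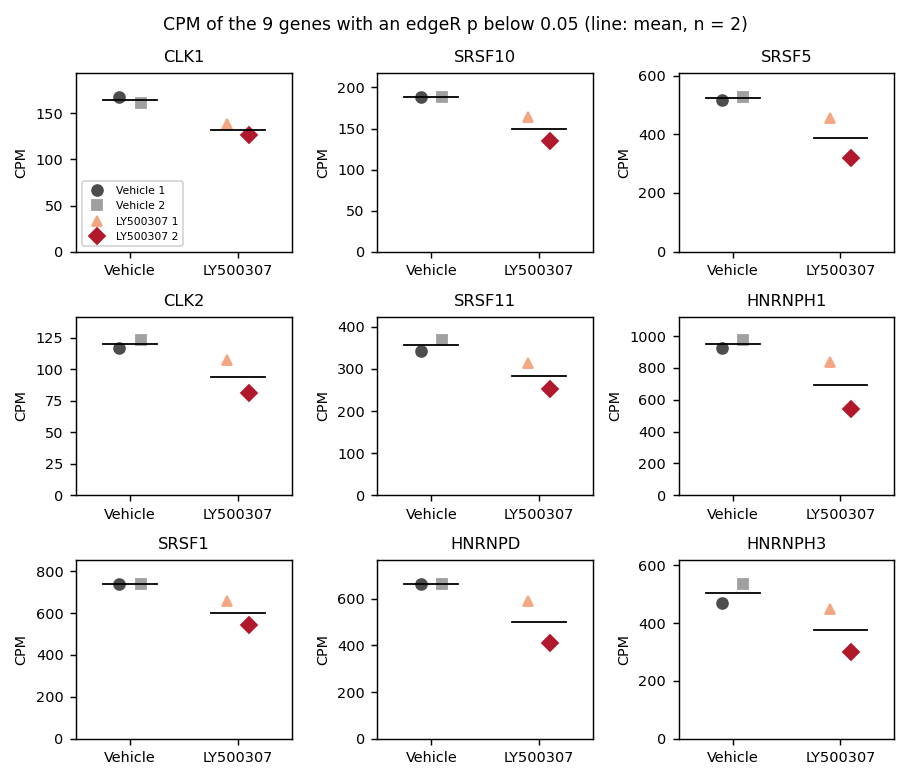
CPM of the 9 splicing factor genes with an edgeR p below 0.05, 1 panel each with an axis from 0, with 1 symbol for each sample and a line at the mean of each group (n = 2). In every panel both LY500307 samples lie below both vehicle samples, and LY500307 replicate 2 is the lower of the treated samples, as for HNRNPH1 with 836 and 544 CPM.

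Features of the annotation that played no part in the choice of genes were also compared. At least 1 transcript annotated for nonsense-mediated decay was listed for 40 of the 53 tested genes (75.5%), among them all 12 SR protein genes, against 44.2% of the 13755 tested genes with annotation. A transcript with a retained intron was listed for 79.2%, against 57.5%. The part in these shares of the family's higher level, and of the number of transcripts listed per gene, was not tested. Reads were counted per gene, so productive and unproductive transcripts of a gene were added together. The median GC content of the exons was 42.4%, against 48.0% over all genes. Across the 53 genes the log2 fold change had a Pearson r of 0.21 and a Spearman rho of 0.28 with exonic GC content, and across all annotated genes 0.27 and 0.33, over genes that share the same 4 libraries. With a correction for GC content, 5 splicing factor genes were lower at p below 0.05 (CLK2, HNRNPH1, HNRNPM, SRRM2 and SRSF5) and SRSF8 was higher, against 4.74% and 4.72% of all genes, and the median was -0.16. CLK1, HNRNPD, HNRNPH3, SRSF1, SRSF10 and SRSF11 were then no longer called. The corrected log2 fold changes of HNRNPD (-0.31) and HNRNPH3 (-0.33) stayed nearer to the uncorrected ones than those of CLK1 (-0.21), SRSF1 (-0.20), SRSF10 (-0.19) and SRSF11 (-0.18), which shrank by over 1.5 times. For 8 genes, 10% or more of the exonic bases overlap another gene, and the median log2 fold change of the 45 others was -0.21.

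Other genes of RNA splicing were described by 6 lists. Of the 38 tested genes of SR-related proteins and their kinases, 14 were lower at an unadjusted p below 0.05, 5 of them past the study's criteria for DEGs, and none was higher, with a median log2 fold change of -0.31. These shares, 36.8% and 0%, stand against 5.5% and 6.09% of all genes, and 4.62% of all genes met the criteria in either direction. The median of this list was -0.12 without LY500307 replicate 2 and -0.50 without replicate 1. NKTR, a cyclophilin with an SR domain, had 266 and 264 CPM in vehicle and 211 and 171 CPM after LY500307 (-0.47, edgeR adjusted p = 0.422). The gene of this list with the smallest p among those with a positive value was RBM23, with 61.3 and 69.9 CPM in vehicle and 72.5 and 78.0 CPM after LY500307 (0.20, edgeR adjusted p = 0.477). Of the 43 core spliceosome genes 4 were lower and 1 higher (9.30% and 2.33%), with a median of -0.15. That median was -0.01 without LY500307 replicate 2 and -0.25 without replicate 1. PRPF39, a protein of the U1 snRNP, had 102 and 100 CPM in vehicle and 79.8 and 69.4 CPM after LY500307 (-0.44, edgeR adjusted p = 0.422), and PRPF19, a ubiquitin ligase of the spliceosome, had 149 and 141 CPM in vehicle and 160 and 188 CPM after LY500307 (0.27, edgeR adjusted p = 0.428).

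The remaining lists lay nearer to the median of all genes. Of 24 snRNP and LSm genes 1 was lower (4.17%, below the 5.5% of all genes), LSM3 (-0.40, edgeR adjusted p = 0.422), and none was higher, with a median of -0.02 and SNRPB at 0.40 (edgeR adjusted p = 0.431). Of 16 hnRNP genes under other symbols 2 were lower (12.5%), PTBP2 (-0.39, edgeR adjusted p = 0.423) and HNRPDL, with a median of -0.12. Of 20 tissue and alternative splicing regulators 1 was lower (5.0%, near the share of all genes), TIAL1 (-0.25, edgeR adjusted p = 0.427), with a median of -0.04 and MSI2 at 0.17. Of 16 genes of nonsense-mediated decay and the exon junction complex 2 were lower (12.5%), among them UPF3A with 43.6 and 45.5 CPM in vehicle and 36.0 and 24.9 CPM after LY500307 (-0.55, edgeR adjusted p = 0.422), which met the study's criteria, with a median of -0.12 and EIF4A3 at 0.23. In the order given, the medians of these 4 lists were 0.01, -0.08, 0.00 and -0.05 without LY500307 replicate 2. Without replicate 1 they were -0.04, -0.22, -0.13 and -0.10. These lists were described by counts and medians, and no difference between lists was tested.

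**Figure D5:**
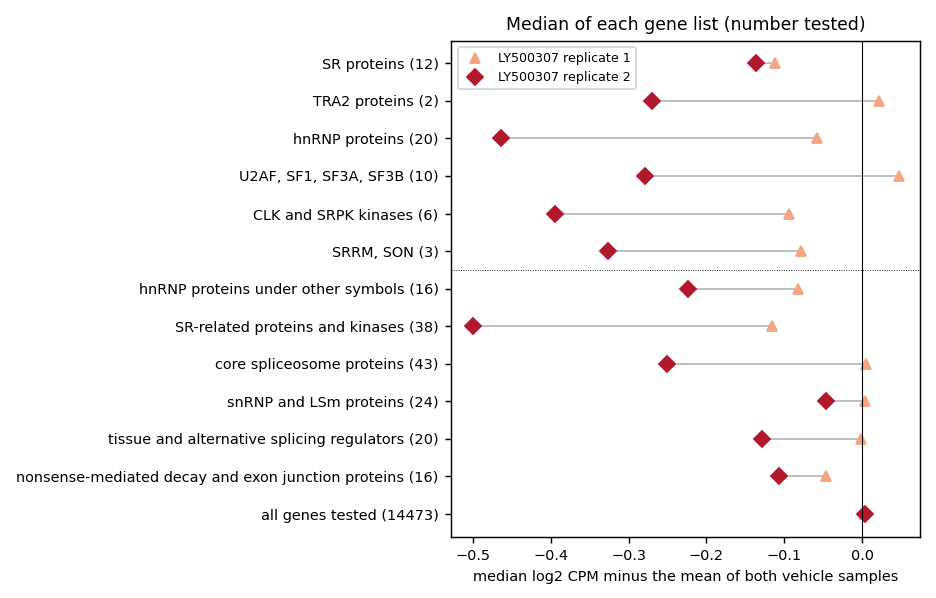
Median log2 CPM minus the vehicle mean (horizontal) over the tested genes of each role group and list, for LY500307 replicate 1 (triangles) and replicate 2 (diamonds), with the number of genes tested in brackets. Replicate 2 lies further below zero than replicate 1 for every group and list shown apart from the median of all genes, and the SR-related list reaches -0.50 in replicate 2.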

How the data were processed

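RNA-seq counts were analysed for cells that the paper names SKOV3-ALDH+ OCSCs, with vehicle (2 samples) or LY500307 (2 samples). The authors aligned reads to hg19 with TopHat2 2.0.8b, counted them per gene symbol with HTSeq and deposited raw counts without normalization. Libraries were 50 base single-end. The labels name a total RNA kit and the paper's methods a stranded mRNA kit. Reads outside genes (17.3% to 20.5%) and reads aligned to several places (32.3% to 33.4%) were left out of library sizes and tests. Counts were scaled by TMM and tested by the quasi-likelihood test of edgeR 4.0.16 (R 4.3.3) over the 14473 of 23228 genes kept by filterByExpr, with Benjamini-Hochberg adjustment over all of them. The scripts were first tested on simulated data. DESeq2 1.42.0, other filters, scaling, a replicate block, length and GC corrections and leaving out each library were alternatives. CPM are TMM-scaled. Gene positions, exonic length and GC came from GENCODE 44 on GRCh37 (91.4% of symbols matched), promoters from RefSeq. Values in every sample were given for genes with p below 0.05, the 3 largest changes in each direction and a panel chosen by role. Members and lists were chosen with earlier results of these data known.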

Additional observations from a re-analysis of the deposited data

How the results depend on the processing

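Of the alternatives that kept all 4 samples, 8 to 15 genes were lower at p below 0.05 apart from the GC correction, against 9 in the main test, with 13 by DESeq2 (1 higher, HNRNPL), 15 with all genes of at least 1 count (2 higher) and 5 with the GC correction (1 higher). The replicate block with the GC correction gave 8 lower and 1 higher. The cause was not tested. CLK2, HNRNPH1 and SRSF5 kept p below 0.05 in all 9 of these alternatives. Leaving out 1 library each, the number of genes lower ranged from 0 to 36, the number higher from 0 to 7, the number meeting the study's criteria from 0 to 14 and the median log2 fold change from -0.34 to -0.058. Samples with the same replicate number did not deviate together (correlation -0.07 over all genes, -0.23 over the more highly expressed ones), so the numbers were not taken to pair the samples, which 2 samples a group cannot settle. With the replicate block 11 genes were lower, 7 of them among the 9 of the main test, and the median was -0.21. SRSF1 and SRSF11 lost their calls with this block. A crossed replicate block, chosen after seeing the data, gave 18 lower and 2 higher, and 381 genes of the whole table, 1 of them a splicing factor gene, with an adjusted p below 0.05 by edgeR. Values near zero changed sign: U2AF2 was 0.013 with library totals alone; SF3A1 was -0.0035 with the replicate block, -0.048 with the GC correction and -0.057 with both. With the length correction SON was 0.012 and TRA2B 0.017. With the GC correction TRA2B was 0.057 and SRSF6 0.018, and with the block added 0.054 and 0.018. Leaving out 1 library each, log2 fold changes ranged from -0.0021 to 0.35 for HNRNPA0, -0.031 to 0.29 for HNRNPK, -0.038 to 0.81 for HNRNPL, -0.21 to 0.078 for SF1, -0.15 to 0.15 for SF3A1, -0.12 to 0.24 for SRSF2, -0.044 to 0.14 for SRSF7, -0.21 to 0.12 for TRA2B and -0.10 to 0.055 for U2AF2 and so crossed zero.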
